A study of Homo sapiens with 36 samples.

Results

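Among the genes of A549 cells, 74 differed little between IL-1β-exposed and untreated cells while the cytokine was present, and then differed at both late collections following IL-1β withdrawal. They are 74 of the 63677 genes listed in the count tables, and of the 15384 genes with a mean of at least 1 CPM (the reads on a gene scaled to a total of 1000000 reads on genes per library) over the 36 libraries. The genes were chosen by d, which is the mean of log2(CPM + 0.5) over the 3 IL-1β libraries of a time point minus the mean over its 3 control libraries. A gene was kept where d stayed within 0.5 of zero at days 6, 15 and 21 of exposure and reached at least 0.7 in size, on the same side, at both day 15 and day 30 posttreatment. In 70 of the 74 genes the level was higher in the earlier exposed cells, and in 4, FN1, PLA2G4A, BMP2 and MT-TQ, it was lower. Of the 74 genes, 65 are protein coding, 6 are pseudogenes, 2 are long noncoding RNAs and 1 is a mitochondrial tRNA.

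A549 is an established human lung adenocarcinoma line, and RNA was sequenced from its cells with no gene altered. The exposed groups had IL-1β in the medium at 1 ng/ml for 6, 15 or 21 days, the posttreatment groups had 21 days of IL-1β followed by 6, 15 or 30 days without it, and each of these 6 collections has untreated control cells of its own. The 12 groups hold 3 libraries each, labelled as biological replicates. The labels do not say whether replicates were kept as separate cultures throughout, so that p-values measure the spread between these libraries alone, and a single line is the whole of the model.

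IL-1β is an inflammatory cytokine that acts through its receptor, the adaptor MyD88 and the kinases that release NF-κB and activate AP-1, and most of its direct target genes respond within hours and fall again when it is removed. In A549 cells long exposure is also known for an epithelial-to-mesenchymal transition, a change in which epithelial cells loosen their junctions and take up mesenchymal genes such as fibronectin.

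The identity of the cells was read from their markers. Of 6 epithelial markers, KRT7, KRT8, KRT18 and CDH1 were well expressed and KRT19 and EPCAM had medians under 1 CPM, and the summed level of the 6 ranged from 1820 to 9783 CPM over the libraries. Of 12 leukocyte, endothelial and fibroblast markers, 11 had medians under 1 CPM, CD3E was at 0 in all libraries, and the summed level was 1.77 to 5.61 CPM. In bulk RNA, fewer cells of a kind and less RNA per cell cannot be told apart. The libraries held between 9116032 and 23570026 reads on genes.

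A set of 11 of the 36 libraries stands apart, with 11.8% to 24.6% of their counts on mitochondrial genes against 5.61% to 7.75% in the other 25. They are unevenly placed. The control group holds 2 of them and the IL-1β group 1 at each of days 6 and 15 posttreatment, both groups hold 1 at day 30 posttreatment, and during exposure there is 1 among the day 6 controls and 1 in each of the day 15 and day 21 IL-1β groups. The values with and without these libraries are therefore given side by side. Without them, 1 control and 2 IL-1β libraries remain at days 6 and 15 posttreatment and 2 of each at day 30. Of those left out at day 30 posttreatment, the control library had 23.2% and the IL-1β library 12.2%.

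By the choice of the genes, the 70 higher ones had a median d of 0.26, -0.23 and 0.16 on the 3 successive exposure days, and of 0.85 at day 15 and 0.89 at day 30 posttreatment. These values describe the choice and carry no test. Over all 15384 genes the median d was itself 0.19 at day 15 and 0.13 at day 30 posttreatment, so that relative to the median gene the higher genes stood at 0.66 and 0.76. With library sizes scaled by TMM the median over all genes was 0.00 and 0.02 at these days. The d then still reached 0.7 in size in 33 and 48 of the 70 higher genes and in 4 of the 4 lower genes at each day. All 74 genes kept their side at both, which their choice by a late d of at least 0.7 made likely. Genes past 0.7 on the higher side at both late days made up 3.64% of all genes, and those on the lower side 0.852%.

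Many of the 74 lie close to the limits. The smaller of the late values was 0.7016 for ACCS and 0.7031 for BMP2, in the latter on the lower side, while KCNN4, IGFBP6 and ERCC2, at 0.6952, 0.6948 and 0.6944, were not kept. During exposure the largest size of d was 0.4997 for SNX18P13, 0.4987 for ZNF469 and 0.4986 for CTSB, just inside the limit, and 0.5013 for SRPX, 0.5023 for TCIRG1 and 0.5026 for VAT1, just outside it. In 41 of the 74 genes d exceeded 0.4 in size at 1 or more exposure days, so that level during exposure means within the limit and not zero.

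The plot of d by gene and time point shows 72 of the genes with all libraries and with the 25 libraries of low mitochondrial share. Without the 11 libraries the median d of the higher genes was 0.12, 0.18 and 0.25 at days 6, 15 and 21 of exposure and 0.52, 0.56 and 0.48 at days 6, 15 and 30 posttreatment. The dip at day 15 of exposure, where d was below zero in 55 of the 70 genes and in 60.3% of all genes, was absent there, since d was above zero in 51 of 70, beside 48.2% of all genes. Of the 70 genes, 68 kept their side at day 15 posttreatment and 68 at day 30, beside 49.8% and 49.7% of all genes above zero in these libraries. The 25 libraries are part of those that chose the genes, so these counts describe the choice in fewer libraries and nothing is read from the shares beside them.

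**Figure D1:**
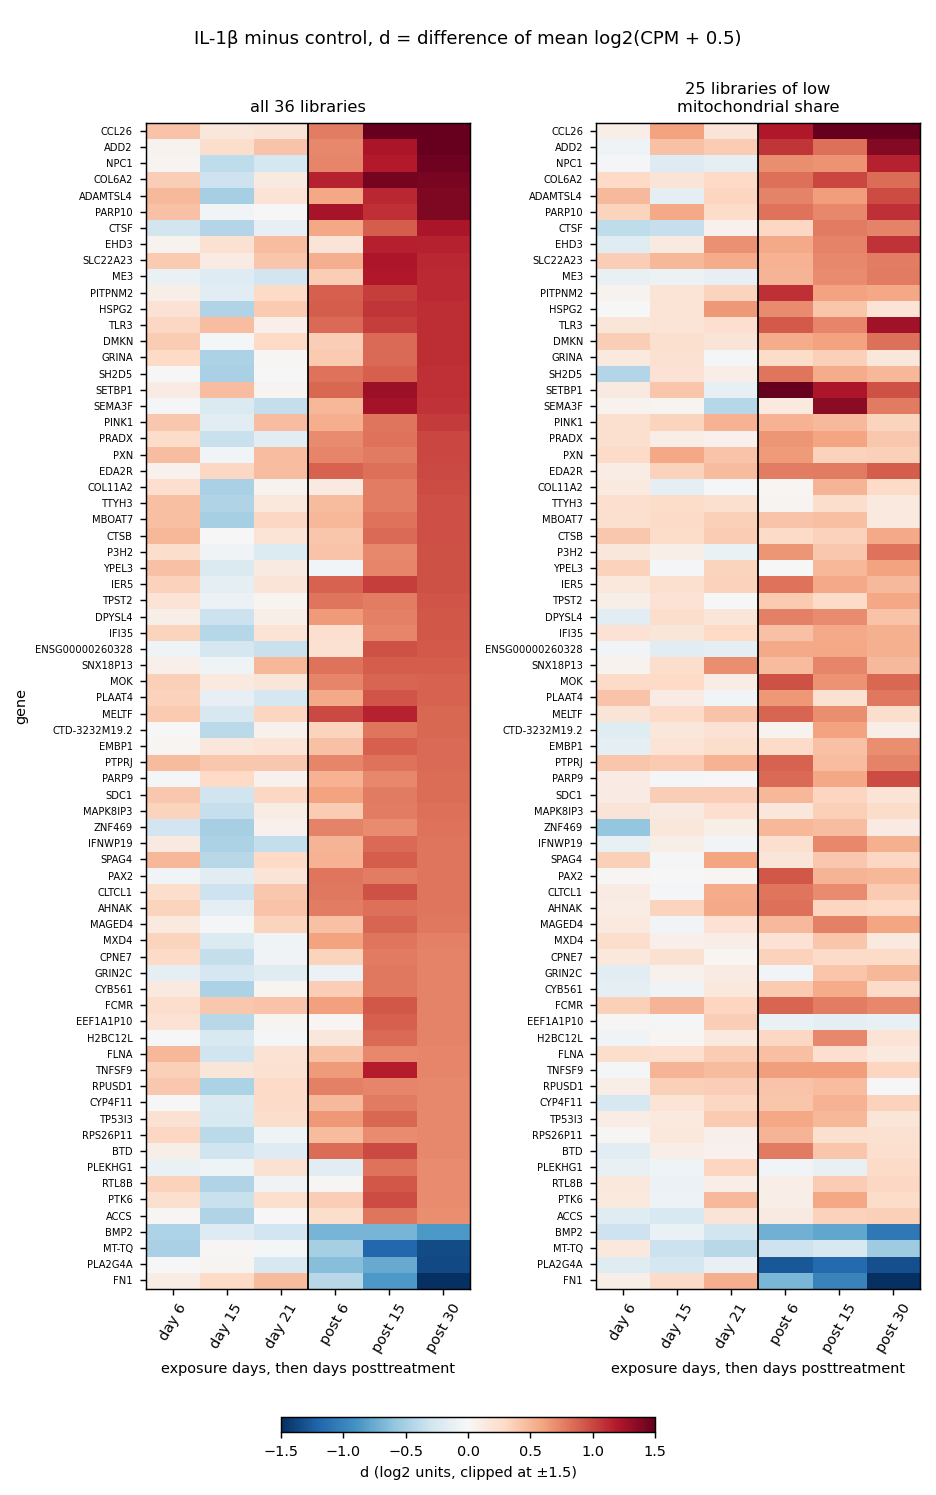
Each row is one of 72 of the genes and each column a time point, days 6, 15 and 21 of exposure and days 6, 15 and 30 posttreatment. Colour gives d in log2 units, red where the IL-1β libraries are higher and blue where they are lower, with all 36 libraries on the left and the 25 libraries of low mitochondrial share on the right. The 2 late columns are strong on the left by the choice of the genes and paler on the right, where the medians of the 70 higher genes are 0.56 and 0.48.

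In these 25 libraries 13 of the 70 higher genes and 3 of the 4 lower genes still had a d of at least 0.7 in size at both late days. Of all genes 1.07% and 1.03% did so on the respective sides, shares with which the members cannot be compared, since they were chosen for this d at the same days with these libraries included. The higher ones were CCL26, ADD2, COL6A2, PARP10, CTSF, EHD3, SLC22A23, ME3, TLR3, SETBP1, SEMA3F, EDA2R and FCMR, and the lower ones FN1, PLA2G4A and BMP2. Applied in full to the 25 libraries, the rule kept 16 genes, of which 10 are among the 74, namely ADD2, BMP2, COL6A2, CTSF, EDA2R, ME3, PLA2G4A, SEMA3F, SETBP1 and TLR3. The plot of d with and without the 11 libraries places most of the higher genes below the line of equality at both days.

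**Figure D2:**
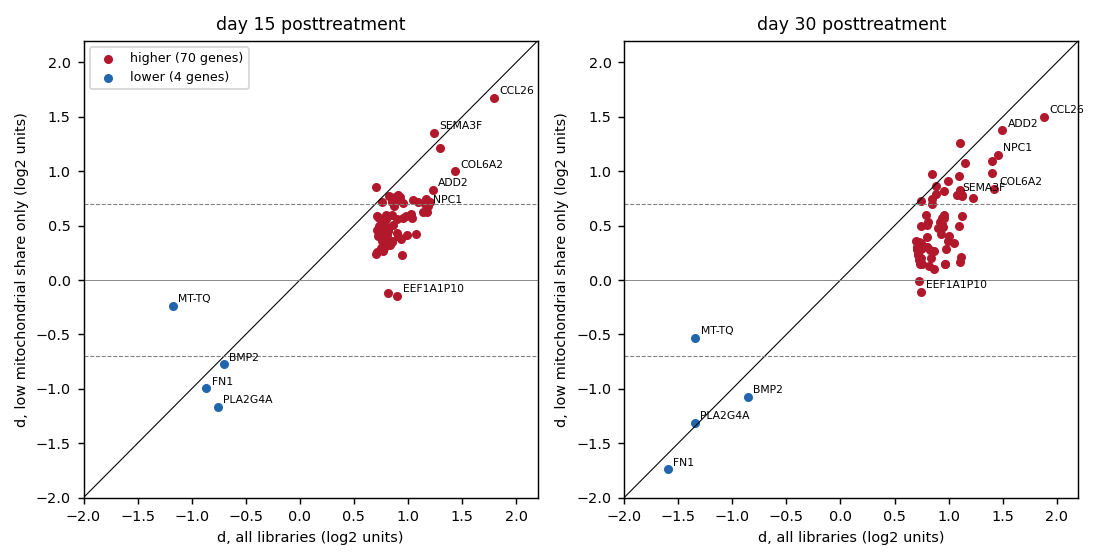
Each point is one of the 74 genes, with d from all libraries on the x axis and d from the libraries of low mitochondrial share on the y axis, in log2 units, at day 15 (left) and day 30 posttreatment (right). The diagonal marks equal values and the dashed lines 0.7 and -0.7. FN1 and BMP2 lie further from zero without the 11 libraries at both days, PLA2G4A at day 15 only, MT-TQ moves toward zero, and most higher genes lie below the diagonal.

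Windows of 250 bases before the transcription start are shown for FN1 and PLA2G4A, the lower genes that have one in the table used, and for CCL26 and NPC1, which were among the 3 genes of largest d at day 30 posttreatment. They are from RefSeq on GRCh38.p14, a later build than the GRCh37 of the counts, on the strand of the gene and 5′ to 3′, with GC boxes (GGGCGG on either strand) and CCAAT boxes in capitals. FN1 lies at chr2:215436069-215436318 on the minus strand, PLA2G4A at chr1:186828699-186828948 on the plus strand, CCL26 at chr7:75789747-75789996 on the minus strand and NPC1 at chr18:23586507-23586756 on the minus strand.
FN1: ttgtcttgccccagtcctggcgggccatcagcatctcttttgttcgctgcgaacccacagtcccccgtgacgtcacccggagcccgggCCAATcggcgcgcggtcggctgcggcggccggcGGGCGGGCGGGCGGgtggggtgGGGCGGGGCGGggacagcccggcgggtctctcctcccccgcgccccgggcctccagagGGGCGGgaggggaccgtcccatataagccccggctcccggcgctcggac
PLA2G4A: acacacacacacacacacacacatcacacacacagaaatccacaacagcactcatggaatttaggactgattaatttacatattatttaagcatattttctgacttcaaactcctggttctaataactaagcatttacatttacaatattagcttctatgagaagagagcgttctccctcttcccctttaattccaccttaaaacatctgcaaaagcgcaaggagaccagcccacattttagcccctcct
CCL26: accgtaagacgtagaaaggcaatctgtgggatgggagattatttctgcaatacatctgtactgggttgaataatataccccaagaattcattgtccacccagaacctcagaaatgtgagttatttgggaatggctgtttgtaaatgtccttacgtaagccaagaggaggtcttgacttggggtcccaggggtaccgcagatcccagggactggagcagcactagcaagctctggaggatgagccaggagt
NPC1: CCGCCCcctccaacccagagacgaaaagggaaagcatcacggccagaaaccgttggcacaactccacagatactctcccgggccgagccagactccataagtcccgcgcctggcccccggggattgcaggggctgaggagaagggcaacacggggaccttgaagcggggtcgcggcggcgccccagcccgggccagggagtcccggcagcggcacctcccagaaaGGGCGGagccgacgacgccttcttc

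The FN1 window holds 6 GC boxes, the first 129 and the last 49 bases before the start and some overlapping, and a CCAAT box 162 bases before it. The NPC1 window holds 2 GC boxes, 250 and 25 bases before the start, and the windows of PLA2G4A and CCL26 hold none. The same letters were counted in windows that also include the first 50 bases of the transcript, which the table held for 50 of the 74 genes, 48 higher and 2 lower. Of the 48 higher genes, 31 (64.6%) had a GC box, against 44.6% of all 27305 windows.

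Other letters were found in the 48 windows at shares close to those of all windows. The AP-1 site TGACTCA was in 4.17% against 4.92%, the hypoxia element core ACGTG in 22.9% against 21.6%, the SNAI and ZEB E-box CACCTG in 16.7% against 20.6%, and CCAAT in 33.3% against 35.7%. TATAAA was in 8.33% against 12%, the ETS core CCGGAAG in 8.33% against 10.7%, and the MYC and USF E-box CACGTG, which contains ACGTG, in 10.4% against 7.43%. The median GC content of the 48 windows was 67.5% against 58.3% for all windows. Both strands were searched, and a match is a description of the letters only.

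The 4 lower genes have separate roles. FN1 encodes fibronectin, a glycoprotein of the extracellular matrix that binds integrins and collagens and is widely used as a mesenchymal marker. PLA2G4A encodes the cytosolic phospholipase A2 that frees arachidonic acid from membranes for prostaglandin synthesis. BMP2 encodes a bone morphogenetic protein, a secreted ligand that signals through SMAD proteins, and MT-TQ is the mitochondrial tRNA for glutamine, which is 72 bases long and is read here from a poly(A)-selected library.

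FN1 (ENSG00000115414, GRCh37 chr2:216225163-216300796, minus strand) had 232, 179 and 192 CPM in the control libraries and 110, 97.2 and 122 CPM in the IL-1β libraries at day 15 posttreatment. At day 30 posttreatment the controls were at 258, 209 and 399 CPM and the earlier exposed cells at 84.3, 84.2 and 109 CPM. The groups did not overlap at either day, and the control of 399 CPM was the highest library of the day. At day 21 of exposure the order was the opposite, with 205, 169 and 214 CPM in the controls and 292, 245 and 278 CPM with IL-1β.

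The d of FN1 was thus 0.11, 0.30 and 0.47 during exposure and -0.42, -0.87 and -1.60 at days 6, 15 and 30 posttreatment. In the libraries of low mitochondrial share the last 3 values were -0.68, -0.997 and -1.74. FN1 was therefore further below control without the 11 libraries, although its d at day 21 of exposure then came to 0.55, past the limit. At day 6 posttreatment, the libraries that did not choose the genes, controls held 169, 162 and 262 CPM and earlier exposed cells 156, 113 and 171 CPM, and the groups overlapped.

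PLA2G4A (ENSG00000116711, chr1:186798081-186958113, plus strand) had 3.82, 4.09 and 8.88 CPM in the controls and 1.61, 1.22 and 2.61 CPM in the earlier exposed cells at day 30 posttreatment. At day 15 posttreatment the controls held 4.87, 2.89 and 3.44 CPM and the earlier exposed cells 1.52, 2.09 and 2.34 CPM. No earlier exposed library reached a control at either day. Its d was -0.76 and -1.35 with all libraries and -1.16 and -1.31 in those of low mitochondrial share.

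BMP2 (ENSG00000125845, chr20:6748333-6760893) is weakly expressed, with a mean of 1.03 CPM, so that few reads stand behind each value. At day 30 posttreatment the controls held 2.37, 0.599 and 2.36 CPM and the earlier exposed cells 0.732, 0.321 and 1.00 CPM. The groups overlapped through the control of 0.599 CPM, which is the library of high mitochondrial share, and d was -0.86 with it and -1.08 without the libraries of that kind. BMP2 was also on the lower side at all 3 exposure days, with d between -0.19 and -0.46.

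MT-TQ (mitochondrial genome, 4329 to 4400) had 8.56, 53.4 and 10.1 CPM in the controls and 5.34, 6.42 and 7.37 CPM in the earlier exposed cells at day 30 posttreatment. The control of 53.4 CPM is a library of high mitochondrial share. At day 15 posttreatment the controls were at 8.49, 30.0 and 29.1 CPM, the latter 2 again from such libraries, and the earlier exposed cells at 5.12, 11.6 and 9.87 CPM. Its d of -1.18 and -1.34 became -0.24 and -0.53 without them.

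The higher genes are described by role, with roles assigned after the genes were known. The matrix group has 6 of them, COL6A2 and COL11A2, which encode chains of collagens VI and XI, HSPG2, the basement membrane proteoglycan perlecan, SDC1, the cell surface proteoglycan syndecan-1, P3H2, a prolyl hydroxylase of collagen, and ADAMTSL4, a secreted protein of fibrillin microfibrils. Their d at day 30 posttreatment ranged from 0.83 to 1.42 with all libraries and from 0.20 to 0.98 without the 11. HSPG2 and COL11A2 changed most between the 2 sets of libraries, from 1.11 to 0.21 and from 0.97 to 0.28. ADAMTSL4 shares 28.2% of its exonic bases with other annotated genes on its strand, so some of its reads could be among the ambiguous ones, which were left out.

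COL6A2 (ENSG00000142173, chr21:47518026-47552762) had 14.1, 3.70 and 11.4 CPM in the controls and 25.7, 24.7 and 20.7 CPM in the earlier exposed cells at day 30 posttreatment. At day 15 posttreatment the controls held 13.2, 4.65 and 5.03 CPM and the earlier exposed cells 29.4, 9.77 and 24.6 CPM. The groups were apart at day 30 and overlapped at day 15, where the IL-1β library of 9.77 CPM and the controls of 4.65 and 5.03 CPM are those of high mitochondrial share. Its d was 1.43 and 1.42 at the late days, and 1.00 and 0.84 in the other libraries.

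The cytoskeleton and adhesion group has 9 higher genes. FLNA encodes a filamin, which crosslinks actin filaments, ADD2 encodes β-adducin, which caps actin and joins it to spectrin, PXN encodes paxillin, a scaffold of focal adhesions, and AHNAK encodes a giant scaffold protein beneath the membrane. PTPRJ is a receptor tyrosine phosphatase, PTK6 a cytoplasmic tyrosine kinase of epithelia, PLEKHG1 a guanine nucleotide exchange factor and SH2D5 an adaptor with an SH2-like domain. FLNA, with a mean of 2951 CPM, and AHNAK, with 1892 CPM, are the most abundant of the 74 genes. Their d at day 30 posttreatment was 0.74 and 0.80 with all libraries, and 0.14 and 0.30 when the 11 libraries were left out.

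ADD2 (ENSG00000075340, chr2:70834750-70995357) kept its difference. At day 30 posttreatment it had 18.8, 14.1 and 13.5 CPM in the controls and 47.8, 47.8 and 37.4 CPM in the earlier exposed cells, and at day 15 posttreatment 21.2, 14.04 and 11.9 CPM against 43.3, 33.4 and 33.3 CPM. Every earlier exposed library lay above every control at both days. The d was 1.23 and 1.49 with all libraries and 0.83 and 1.38 in those of low mitochondrial share, and on the successive exposure days it was 0.05, 0.27 and 0.43.

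The innate immune and interferon-response group has 8 higher genes and held 4 of the 13 that kept a d of 0.7 at both late days without the 11 libraries. CCL26 encodes eotaxin-3, a chemokine for eosinophils, TLR3 the endosomal receptor for double-stranded RNA, and PARP9 and PARP10 are ADP-ribosyltransferase family proteins of the interferon response. IFI35 is an interferon-induced protein, TNFSF9 encodes the ligand of the costimulatory receptor 4-1BB, FCMR an Fc receptor for IgM, and PLAAT4 is a phospholipase induced by retinoids and interferon. At day 30 posttreatment the median d of the 8 was 0.91 with all libraries and 0.88 without the 11.

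CCL26 (ENSG00000006606, chr7:75398851-75419214) had the largest d at day 30 posttreatment of the higher genes. The controls held 1.79, 0.399 and 0.788 CPM and the earlier exposed cells 5.12, 5.14 and 3.71 CPM at that day, and at day 15 posttreatment 1.46, 0.882 and 1.09 CPM against 6.64, 4.11 and 4.98 CPM. The groups were apart at both days. The d was 1.80 and 1.88, and 1.67 and 1.502 without the 11 libraries.

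TLR3 (ENSG00000164342, chr4:186990065-187009227) had 3.76, 4.09 and 2.10 CPM in the controls and 7.98, 7.51 and 7.02 CPM in the earlier exposed cells at day 30 posttreatment. Its groups were also apart at day 6 posttreatment, at 3.29, 5.28 and 4.06 CPM against 7.63, 7.21 and 8.74 CPM, and at day 15 posttreatment. The d at day 30 was 1.11 with all libraries and 1.26 without the 11. TLR3 and PARP9 are among the 5 higher genes that were not lower in the libraries of high mitochondrial share, and PARP9 stood at 0.84 with all libraries and 0.98 without the 11.

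The group of lysosome, lipid and membrane traffic has 9 higher genes besides PLA2G4A. NPC1 moves cholesterol out of late endosomes and lysosomes, CTSB and CTSF encode lysosomal cysteine proteases, EHD3 and CLTCL1 act in endocytic recycling and clathrin coats, and MELTF is an iron-binding surface protein. PITPNM2 transfers phosphatidylinositol, MBOAT7 acylates lysophosphatidylinositol with arachidonate and CYB561 carries electrons across vesicle membranes. The d of EHD3 at day 30 posttreatment was 1.15 with all libraries and 1.08 without the 11, that of CTSF 1.23 and 0.75, and that of MBOAT7 0.96 and 0.15.

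NPC1 (ENSG00000141458, chr18:21086148-21166470) had 265, 97.3 and 182 CPM in the controls and 504, 406 and 475 CPM in the earlier exposed cells at day 30 posttreatment. At day 15 posttreatment the controls held 289, 160 and 130 CPM and the earlier exposed cells 526, 334 and 407 CPM. The groups were apart at both days. During exposure the means were 201 ± 52.5 (SD, n = 3) against 203 ± 10.6 CPM at day 6, 243 ± 5.80 against 190 ± 39.6 CPM at day 15, and 230 ± 26.3 against 191 ± 28.3 CPM at day 21, so that NPC1 with IL-1β was level with control or below it. The late d of 1.19 and 1.45 was 0.68 and 1.15 without the 11 libraries.

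The p53 and stress group has 5 higher genes, TP53I3, an oxidoreductase gene induced by p53, EDA2R, a receptor of the tumour necrosis factor family that p53 also induces, IER5, an immediate early gene tied to the heat shock factor HSF1, PINK1, the kinase that marks damaged mitochondria, and MXD4, an antagonist of MYC. Their d at day 30 posttreatment was between 0.72 and 1.05 with all libraries and between 0.15 and 0.91 without the 11. EDA2R gave the 0.91 and MXD4 the 0.15. PINK1 shares 39.5% of its exonic bases with genes on the opposite strand.

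EDA2R (ENSG00000131080, chrX:65815479-65859140) differed by a similar amount at each posttreatment day. The controls held 18.4, 12.6 and 17.9 CPM and the earlier exposed cells 35.3, 28.6 and 33.8 CPM at day 30 posttreatment, and the groups were apart at that day, at day 15 and at day 6 posttreatment. Its d was 0.88, 0.82 and 0.99 at these days with all libraries, in the order days 6, 15 and 30, and 0.76, 0.78 and 0.91 without the 11. At day 21 of exposure d had already been 0.46, with 17.0, 16.8 and 16.1 CPM in the controls and 24.2, 22.7 and 22.5 CPM with IL-1β.

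The group of developmental and neuronal signalling has 10 higher genes besides BMP2. SEMA3F encodes a secreted class 3 semaphorin that repels axons and endothelial cells, PAX2 a transcription factor of kidney and ear development, SETBP1 a nuclear protein that binds the oncoprotein SET, TTYH3 a member of the tweety family and GRIN2C a subunit of the NMDA glutamate receptor. SEMA3F had 1.10, 0.499 and 1.42 CPM in the controls and 3.81, 2.70 and 1.60 CPM in the earlier exposed cells at day 30 posttreatment, and the groups did not overlap. SETBP1 stood at 1.29 and 1.09 in the late d values and at 1.21 and 0.96 without the 11 libraries. GRINA and TTYH3, at 1.10 and 0.97 at day 30, came to 0.17 and 0.14.

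Among the 7 higher genes of metabolism and transport, ME3, the mitochondrial NADP-dependent malic enzyme, had a d of 1.20 and 1.12 at the late days and 0.71 and 0.78 without the 11 libraries. SLC22A23, an orphan member of the organic ion transporter family (ENSG00000137266, chr6:3269196-3457284), had 24.5, 9.59 and 21.0 CPM in the controls and 41.8, 35.7 and 36.5 CPM in the earlier exposed cells at day 30 posttreatment. Its groups were apart at that day and at day 15 posttreatment. The others of the group are CYP4F11, a fatty acid hydroxylase, BTD, which recycles biotin, TPST2, which sulfates tyrosines, RPUSD1, a pseudouridine synthase family member, and ACCS. RPUSD1 went from 0.73 to -0.01 at day 30 without the 11 libraries, so its difference was absent there.

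The last 16 higher genes are 8 other coding genes and 8 noncoding genes and pseudogenes, and none of them kept a d of 0.7 at both late days without the 11 libraries. The coding ones are DMKN, SPAG4, MAGED4, RTL8B, ZNF469, H2BC12L, CPNE7 and YPEL3, with a median d of 0.80 at day 30 and of 0.31 without those libraries. EEF1A1P10, RPS26P11, SNX18P13, EMBP1, IFNWP19 and CTD-3232M19.2 are pseudogenes whose reads may come from the parent genes or other copies, and MAGED4 and H2BC12L belong to families of near-identical copies. EEF1A1P10 stood at 0.74 at day 30 with all libraries and at -0.11 without the 11. The long noncoding RNA PRADX and the pseudogene IFNWP19 share 66.1% and 81.4% of their exonic bases with genes on the opposite strand, and PXN and FCMR 23.7% and 24.1%. Whether the counts were made by strand is not given in the sources used here.

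**Figure D3:**
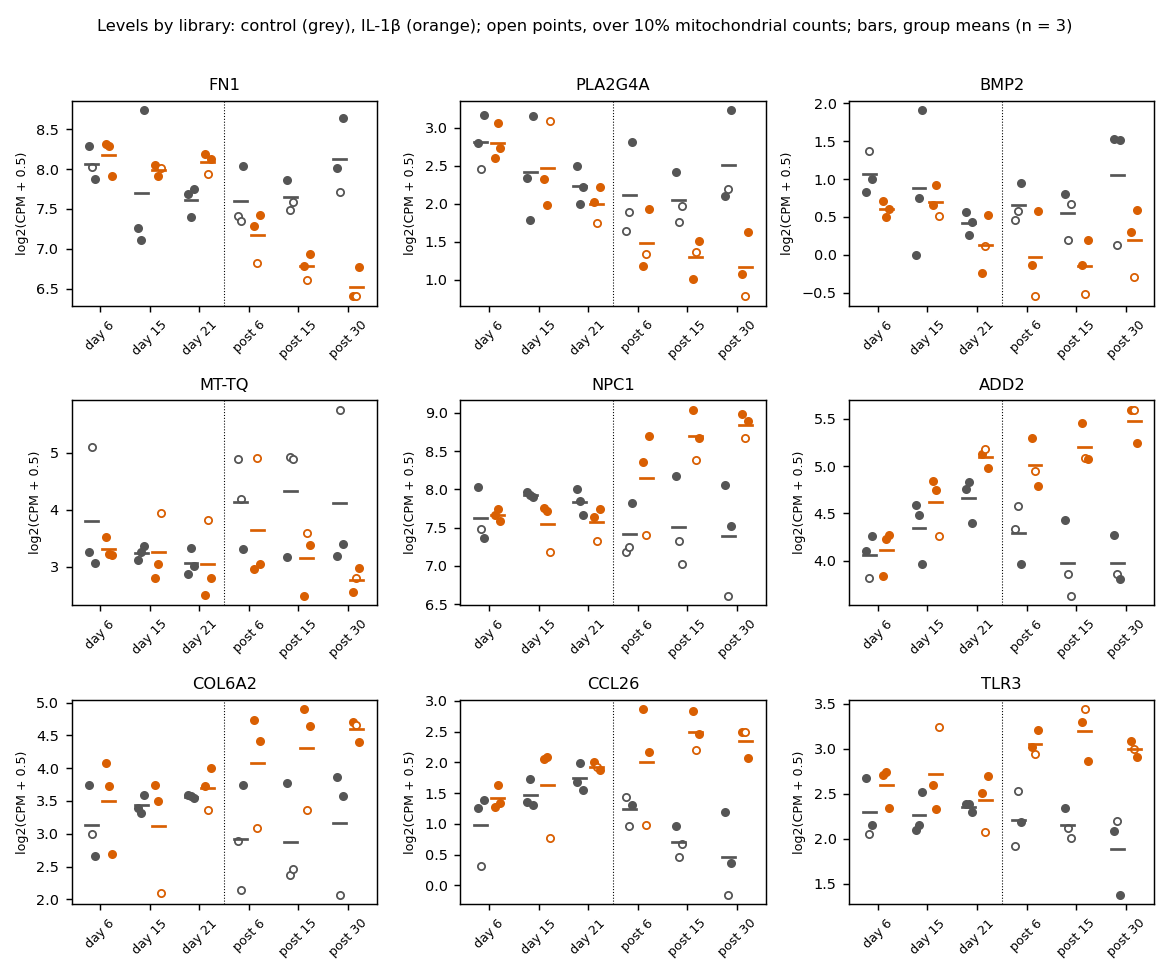
Each panel plots log2(CPM + 0.5) of a gene by library against time point, with untreated controls in grey, IL-1β libraries in orange, bars at the means of 3 libraries, and open points for the libraries with over 10% mitochondrial counts. FN1 and PLA2G4A separate downward and NPC1, ADD2, CCL26 and TLR3 upward at days 15 and 30 posttreatment, the open MT-TQ points are the highest of their groups and the open COL6A2 points the lowest, except for both genes in the IL-1β group of day 30 posttreatment and for COL6A2 in the controls of day 6 of exposure.

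Day 6 posttreatment was not used by the rule beyond the mean level and was tested across all 19180 genes with edgeR's quasi-likelihood method and Benjamini-Hochberg adjustment. All 74 genes were tested. Of the 70 higher genes, 2 rose at an adjusted p under 0.05, EDA2R and PTPRJ, against 1.62% of all genes called higher, and of the 4 lower genes 0 fell, against 0.996% called lower, and 0 by DESeq2's Wald test. With a fold change over 2 also required, 0 of the 74 were called by either tool, against 1.08% and 0.725% of all genes in edgeR. At an unadjusted p under 0.05 there were 22 of the 70 on the higher side and 1 of the 4 on the lower side, PLA2G4A, where all genes gave 5.25% and 4.34%.

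EDA2R had 12.6, 14.8 and 16.6 CPM in the controls and 27.1, 24.95 and 30.1 CPM in the earlier exposed cells at day 6 posttreatment. It rose by a log2 fold change of 0.84 ± 0.15 (SE, n = 3 per group; edgeR, adjusted p = 0.00098), higher in all 3 earlier exposed libraries than in any control. PTPRJ (ENSG00000149177, chr11:48001977-48192391) had 138, 179 and 159 CPM against 291, 210 and 294 CPM and rose by 0.66 ± 0.15 (SE; edgeR, adjusted p = 0.012), also without overlap. PTPRJ had already been higher without overlap at days 6, 15 and 21 of exposure, where its d of 0.48, 0.41 and 0.40 was within the limit. Neither call held with the 6 libraries of this day fitted alone, where the adjusted p was 0.23 for EDA2R and 0.37 for PTPRJ in edgeR, and leaving out replicate 1 (adjusted p of 0.23 and 0.75) or replicate 2 (0.065 and 0.095) ended both calls.

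Without the 11 libraries of high mitochondrial share 12 of the 70 higher genes were called at day 6 posttreatment by the same edgeR test, against 1.81% of all genes, and 0 of the 4 lower genes, against 1.27%. They were CCL26, ADD2, MOK, PITPNM2, TP53I3, EDA2R, PTPRJ, DPYSL4, SETBP1, IER5, MELTF and BTD. CCL26 was at a log2 fold change of 1.46 ± 0.39 (SE; edgeR, adjusted p = 0.042) and ADD2 at 1.14 ± 0.29 (SE; edgeR, adjusted p = 0.033). This fit has a lone control library at day 6 posttreatment, which is assumed to vary like the libraries of the other groups. With the high share as a covariate in all libraries 10 were called, against 3.13% of all genes, and TLR3, PARP9, FCMR, NPC1 and CLTCL1 were among them.

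In the main edgeR fit NPC1 had a log2 fold change of 0.71 ± 0.22 (SE, adjusted p = 0.086) at day 6 posttreatment, from 145, 151 and 226 CPM in the controls and 328, 170 and 413 CPM in the earlier exposed cells. The call of NPC1 depended on the test, with an adjusted p of 0.033 by DESeq2's Wald test and of 0.026 to 0.78 over all alternatives. FN1 had -0.49 ± 0.25 (SE; edgeR, adjusted p = 0.59) and PLA2G4A -0.85 ± 0.39 (SE; edgeR, adjusted p = 0.43). COL6A2 had 1.12 ± 0.44 (SE; edgeR, adjusted p = 0.27) and PARP10, at 0.548, 0.0765 and 1.43 CPM against 2.99, 0.832 and 2.81 CPM, 1.52 ± 0.64 (SE; edgeR, adjusted p = 0.34). In each of these the 6 libraries overlapped between the groups.

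The sides of the day 6 values were more uniform than their calls. The d was above zero in 67 of the 70 higher genes, against 57.6% of all genes, with YPEL3, PLEKHG1 and GRIN2C below, and below zero in 4 of 4 lower genes, against 42.4%. With TMM scaling RTL8B and EEF1A1P10 also fell below zero, which left 65. Day 6 posttreatment has 2 control and 1 IL-1β libraries of high mitochondrial share, as has day 15, which the rule used. In the day 6 groups the higher genes were lower in such libraries by a median of 1.02 log2 units, against 0.38 for all genes. The part of this placement in the shared side was not tested. The d reached 0.7 in 25 of the 70, against 3.51% of all genes, and in 24 without the 11 libraries, against 3.63%, and the groups did not overlap in 9 of the 70, against 5.58%. At days 15 and 30 posttreatment, which the rule used, the groups did not overlap in 19 and 41 of the 70, beside 8.91% and 8.03% of all genes, and in 2 and 3 of the 4 lower genes, beside 2.35% and 3.82%. In 6 of the 74 genes the groups were apart one way at a posttreatment day and the other way at an exposure day, beside 1.74% of all genes, and the rule used the values of both phases. During exposure the groups were already apart in the gene's late direction in 9, 2 and 14 of the 70 higher genes at days 6, 15 and 21. The same held for 1, 0 and 0 of the 4 lower genes. The shares of all genes apart at the exposure days are not given here, so nothing about the 74 genes as a set is read from these counts.

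The plot of log2 fold changes at day 6 posttreatment orders 72 of the genes. By role, an unadjusted p under 0.05 on the gene's side was found for 5 of the 10 genes of lysosome, lipid and membrane traffic, 4 of the 9 of cytoskeleton and adhesion, 4 of the 8 innate immune genes, 3 of the 5 p53 and stress genes and 3 of the 7 of metabolism and transport. It was found for 2 of the 7 matrix genes, 2 of the 11 of developmental and neuronal signalling, and 0 of the 17 others by edgeR's quasi-likelihood test, where DESeq2's Wald test gave 1 of 17 at the same unadjusted p. Of all genes 5.25% were higher and 4.34% lower at this p. The roles were assigned with the genes known, hold few genes each, and were not compared with each other by a test.

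**Figure D4:**
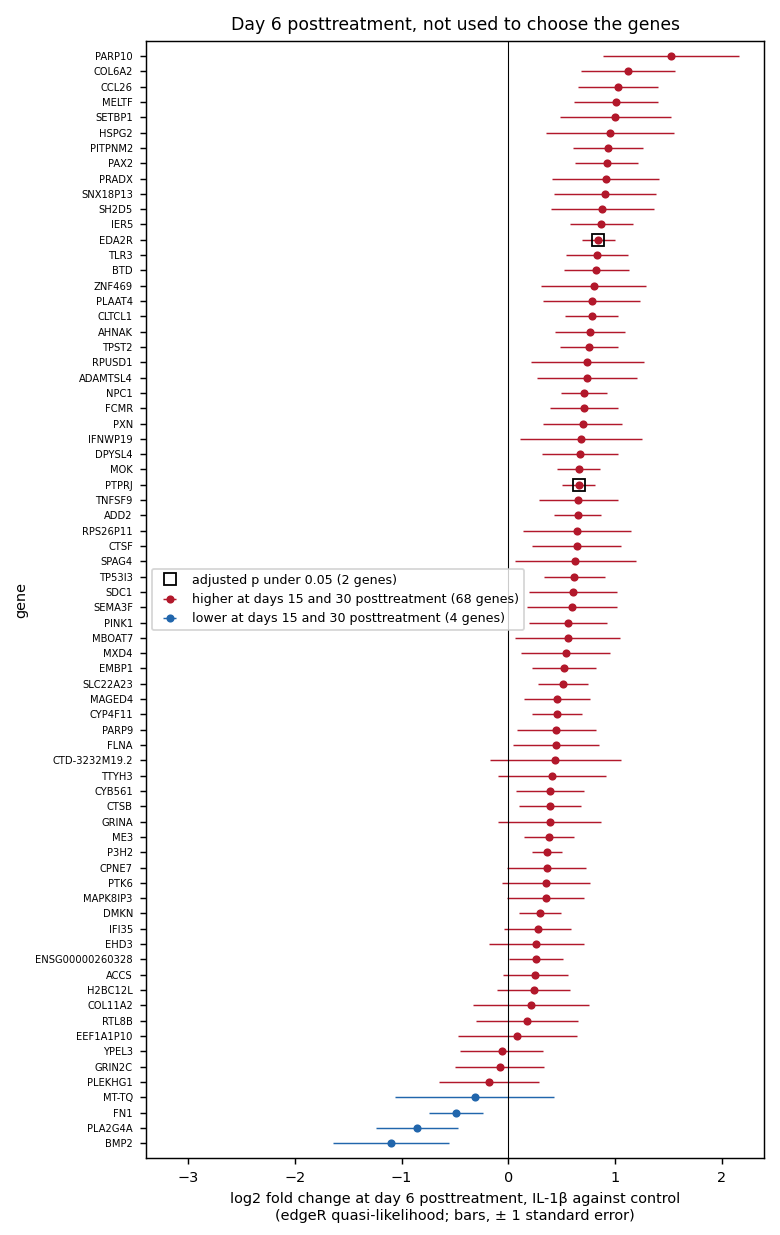
Points give the log2 fold change of 72 of the genes at day 6 posttreatment, IL-1β against control, with bars of 1 standard error from edgeR's quasi-likelihood fit. Red marks genes that were higher and blue the 4 that were lower at the late days, and squares the 2 genes with an adjusted p under 0.05, EDA2R and PTPRJ. All but 3 of the red points lie above zero and all 4 blue points below it.

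Each arm was also followed by itself, as the mean of log2(CPM + 0.5) over days 15 and 30 posttreatment minus the mean over the 3 exposure days. With all libraries the control arm of the 70 higher genes moved down by a median of 0.43 (a shift of -0.43, below zero in 65 of 70) and the earlier exposed arm up by 0.44 (above zero in 63 of 70). In the libraries of low mitochondrial share the control shift was 0.09, below zero in 22 of 70, and the earlier exposed arm's was 0.45, above zero in 64 of 70. The earlier exposed arm moved further than the control arm in 35 of the 70 genes with all libraries and in 61 of the 70 in those of low share. The shifts are made of the values that chose the genes, so that the arms had to part, and they are given as a description. Over all genes these 4 medians were -0.17, 0.01, 0.01 and 0.02.

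The mitochondrial share moves with the levels of these genes. In the 9 groups that hold libraries of both kinds, the level of the higher genes was greater in the libraries of low share by a median of 0.86 in log2 units, against 0.29 for all genes, and it was greater in 65 of the 70, against 72.6% of all genes. Most of these groups entered the rule, so these values partly describe the choice of the genes. In the groups of day 6 posttreatment, which entered it only through the mean level, the medians were 1.02 for the higher genes and 0.38 for all genes. In 41 of the 70 the difference over the 9 groups exceeded 0.7, where the upper quartile over all 15384 genes was 0.6951. It was largest among the higher genes for HSPG2, at 1.64. It was -1.35 for MT-TQ, 0.31 for FN1, 0.30 for PLA2G4A and 0.45 for BMP2, so that those 3 were lower in the libraries of high share. The controls of days 6 and 15 posttreatment hold more of these libraries, and each arm holds 1 at day 30. The part of the share in the d of these genes was not tested.

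The longest transcripts of the higher genes have a median GC content of 57.0%, against 47.5% over 15020 genes with a known value, with the lowest in TLR3 at 37.6% and the highest in PARP10 at 66.8%. FN1 and PLA2G4A have 42.2% and 39.0%. The plot of GC content against the difference between libraries of low and high mitochondrial share shows the higher genes spread along the band of all genes, mostly on its GC-rich side. The part of the mitochondrial share and of GC content in the choice of each gene was not tested. The values without the 11 libraries cannot decide it, since the remaining libraries are part of those that chose the genes. Some groups also hold fewer libraries there.

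**Figure D5:**
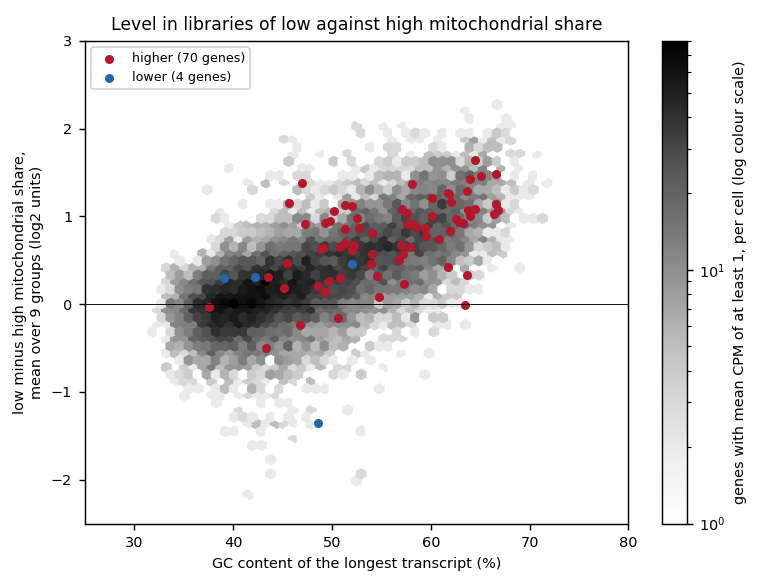
The x axis gives the GC content of the longest transcript in percent and the y axis the level in libraries of low minus high mitochondrial share, in log2 units averaged over 9 groups. Grey cells count genes with a mean of at least 1 CPM, red points are the 70 higher and blue points the 4 lower genes. The red points have a median of 57.0% GC and 0.86 log2 units, and the lone blue point far below zero is MT-TQ at -1.35.

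Few of the 74 genes are in the gene lists made for this system. Of all genes tested at day 6 posttreatment, 1.08% rose and 0.725% fell past both thresholds. Of 25 interferon-stimulated genes measured, IFI35 and PARP9 are members, and 2 of the 25 rose past both thresholds at day 6 posttreatment and 0 fell. The median d of that list was 0.37, 0.74 and 0.77 at days 6, 15 and 30 posttreatment, and 0.43, 0.40 and 0.47 without the 11 libraries, where all genes had -0.01, 0.00 and 0.00. Of 32 mesenchymal and matrix genes FN1 and COL6A2 are members, and 6 of the 32 rose and 0 fell. The median d of this list was 0.35 at day 30 posttreatment and 0.20 without the 11 libraries, and FN1, at -1.74 there, lay on the other side.

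Of 21 p53 targets TP53I3 is a member, with 1 of the 21 rising past both thresholds and 0 falling, and the median d of the list was 0.57, 0.72 and 0.41 at days 6, 15 and 30 posttreatment and 0.49, 0.50 and 0.19 without the 11 libraries. Of 20 genes of TGF-β and BMP responses BMP2 is a member, with 0 rising and 1 falling. CYP4F11 is a member among 30 NRF2 and xenobiotic genes, of which 0 rose and 3 fell, H2BC12L among 21 replication-dependent histone genes, of which 0 were called, ZNF469 among 357 zinc finger genes, of which 0 rose and 1 fell, and SLC22A23 among 211 solute carrier genes, of which 3 rose and 3 fell. Of 24 NF-κB and cytokine genes 0 are members, where 74 of all 15384 genes are. Of these 24, 6 rose past both thresholds at day 6 posttreatment, against 1.08% of all genes tested.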

How the data were processed

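RNA of 36 A549 libraries (12 groups of 3) was measured by poly(A) RNA-seq with a stranded kit and single-end reads. Per the labels, the authors used bcl2fastq 2.17, TopHat2 2.0.14, Bowtie2 2.2.5 and HTSeq 0.6.1 on GRCh37, and deposited raw counts per gene, without normalization. The strand setting and annotation release are not given in the sources used here. The 5 summary lines of each table were left out of all sums. Reads assigned to no gene made up 8.48% to 18.6% of a library, and ambiguous reads 2.62% to 4.18%. Counting error is the only error that depth sets. No 2 replicates of a group were closer than sampling noise (lowest chi-square per degree of freedom 3.81 over 36 pairs).

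Genes were chosen by the rule given with the results. Members, roles, gene lists and alternatives were chosen with earlier results of these data known. Day 6 posttreatment was tested with edgeR 4.0.16 (R 4.3.3) by the quasi-likelihood method, with TMM scaling, filterByExpr and the 12 groups as terms over all 36 libraries (24 residual degrees of freedom), adjusted by Benjamini-Hochberg over 19180 genes. The script was tested on simulated data, where this fit called 50 of 100 genes changed by a log2 of 1 and 100 of 100 changed by 2, with 6 false calls. The 70 higher genes had a median d of 0.56 at day 6 posttreatment, so genes left uncalled there are not shown to be unchanged. Named genes were the 10 of each direction with the largest smaller late d, those called at day 6 posttreatment, members of a list, and the 3 on each side of a limit. Others were named after their values were seen, and the values of some genes are not reported here. Symbols, positions and transcripts are from GENCODE v44 lifted to GRCh37, and promoter windows from RefSeq on GRCh38.p14. Alternatives were other scalings, filters and tests (DESeq2 1.42.0), a replicate block, each replicate left out and, added after seeing the data, the mitochondrial share as a covariate or its 11 libraries left out. Figures were drawn with matplotlib 3.10.9 under Python 3.11.15.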

Additional observations from a re-analysis of the deposited data

Results flagged for a closer look

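In 6 of the 74 genes, beside 1.74% of all genes, every pairing of libraries went one way at a posttreatment day and the other way at an exposure day, and this difference was not tested. Other genes were already apart in their late direction during exposure, such as PTPRJ at days 6, 15 and 21 and EDA2R at days 15 and 21. Since the rule asked for late values and small exposure values, the late side is part of the choice of the genes. The values without the 11 libraries of high mitochondrial share follow each gene.

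SEMA3F was below control in every comparison of libraries at day 21 of exposure (d of -0.3543) and above it at day 15 (1.2427) and day 30 posttreatment (1.0801), with -0.42, 1.36 and 0.78 without the 11 libraries. P3H2 was below control at day 21 of exposure (-0.2009) and above it at day 6 (0.4301), day 15 (0.7208) and day 30 posttreatment (0.9607), and these became -0.097, 0.67, 0.41 and 0.82. FN1 went the other way, above control at day 21 of exposure (0.4749) and below it at day 15 (-0.8666) and day 30 posttreatment (-1.5962), with 0.55, -0.997 and -1.74 in the remaining libraries.

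NPC1 was below control at day 15 of exposure (-0.3779) and above it at day 15 (1.1857) and day 30 posttreatment (1.4533), and stood at -0.19, 0.68 and 1.15 without the 11 libraries. The noncoding RNA ENSG00000260328 was at -0.2486 at day 15 of exposure and at 0.9552 and 0.9204 at days 15 and 30 posttreatment, and without them at -0.16, 0.57 and 0.53. ACCS was at -0.4487 at day 15 of exposure and at 0.7016 at day 30 posttreatment, and then at -0.23 and 0.36. The IL-1β group of day 15 of exposure holds 1 library of high mitochondrial share.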

How the results depend on the processing

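The number of genes that meet the rule moved with the processing. It was 74 as reported, 35 with TMM-scaled library sizes (22 shared with the 74), 48 with CPM over nuclear genes (36 shared), 45 with a mean CPM of at least 5, 13 with a limit of 0.3 during exposure, 15 with a limit of 1 after withdrawal, 16 without the 11 high-share libraries, and 22 to 89 with a replicate left out, 89 without replicate 1, 22 without replicate 2 and 37 without replicate 3, of which 29, 15 and 20 are among the 74. It was 59 with a pseudocount of 1 (47 shared), 89 with a pseudocount of 0.1 (55 shared) and 82 with no minimum CPM (74 shared). At day 6 posttreatment the count of calls at an adjusted p under 0.05 was 2 as reported, 5 with DESeq2's Wald test, 0 with the 6 libraries alone, 0 to 2 with a replicate left out (0 without replicate 1 and without replicate 2), 10 with the mitochondrial covariate and 12 without the 11 libraries. With a fold change over 2 it was 0, and 4 without the 11 libraries. At an unadjusted p it was 23, with 10 to 24 by replicate left out and 38 without the 11 libraries. Shares of all genes are given for the main fit and, at an adjusted p, for the covariate and without the 11 libraries. For the other counts under changed settings they are not given here. Nothing about the 74 genes as a set is therefore read from changes in those counts, such as that from 23 to 38.

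Same-numbered libraries deviated together in 14 of 18 pairs (r over 0.1, from -0.34 to 0.72 over 19180 genes, which are not independent), and 30 of 36 libraries lay closest to their own number. The replicate block gave 6 calls at an adjusted p under 0.05, EDA2R and PTPRJ with CLTCL1, ADD2, MOK and NPC1 (adjusted p of 0.044 for NPC1 in edgeR), and with the mitochondrial covariate 13 calls, of which 1 passed both thresholds. The shares of all genes called with the block are not given here, so nothing about the 74 genes is read from these 6 and 13 calls. The block left the rule's 74 genes as they were.

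Log2 fold changes reversed for EHD3 (0.26) without replicate 3, with -0.13 to 0.54 over the replicates left out, and for MT-TQ (-0.32) without replicate 1, with -1.62 to 0.63, and with the covariate (0.028). Over the named genes and settings 279 values kept side and call, 14 gained and 6 lost the call, and the cause was not tested. Depth limits the genes near 1 CPM, such as BMP2, PARP10 and SEMA3F.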
